A study of Mus musculus with 9 samples.

Results

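The regions described are all enriched regions on mouse chromosome 15 in the 9 deposited lists of a chromatin immunoprecipitation sequencing (ChIP-seq) study of Kdm6a, 8324 of 185632 regions in the whole series. They were chosen by position alone, and their read counts were then compared in steps of 1 Mb. Cell lines came from mouse pancreatic cancer on a mixed C57BL/6-SV129 background: a female line lacking Kdm6a (female KO), a male line lacking it (male KO) and a male line that has it (male WT). All were grown in F12/DMEM with EGF and no treatment, and each gave 1 library for each of 3 histone marks. The labels give neither the age of the mice nor the way the tumours arose, and each group is 1 cell line. Line, sex and genotype therefore cannot be told apart between female KO and male WT. Nor can line and sex between the KO lines, or line and genotype between the male lines. There was no replicate, so no test was made. Intervals cover counting error only, except that an interval over windows, given with a median, covers the spread between windows.

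The Kdm6a protein is a histone demethylase that acts on methylated lysine 27 of H3. H3K27me3, its substrate, covers silenced genes in wide domains, H3K4me3 marks promoters, and H3K27ac marks active promoters and enhancers. A ChIP library is drawn from the DNA of the cells, so a chromosome present in more copies contributes more reads of every mark, whereas a change of chromatin state can move 1 mark without the others. Chromosome 15 carries Myc, an oncogene often amplified in tumours; in the RefSeq annotation of GRCm38.p6 Myc is number 205 of 776 protein-coding genes counted from the start of the chromosome. The same annotation puts 26 keratin genes and 9 Hoxc genes there. Hoxc genes encode developmental transcription factors, often covered by H3K27me3 where they are silent. The deposited coordinates are on mm9, a different build, so no gene was placed on a region and no sequence is shown. For the same reason neither the loss of Kdm6a nor the pancreatic origin was checked at marker genes. All coordinates given are positions on mm9 chromosome 15.

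Chromosome 15 gave a smaller part of each female KO library than of the male libraries, for all 3 marks. Of the autosomal H3K4me3 regions, 4.19% lay on chromosome 15 in the female KO list (95% Wilson interval 3.87 to 4.54%, 569 regions), 4.68% in the male KO list (4.37 to 5.02%, 766 regions) and 4.67% in the male WT list (4.35 to 5.02%, 723 regions). For H3K4me3 these intervals overlapped. For H3K27me3 the shares were 3.80% in female KO (3.54 to 4.07%, 736 regions) and 4.55% in male KO (4.31 to 4.80%, 1282 regions), with 4.86% in male WT (4.61 to 5.13%, 1275 regions). For H3K27ac they were 4.03% in female KO (3.75 to 4.33%, 724 regions) and 5.42% in male KO (5.14 to 5.72%, 1265 regions), with 4.98% in male WT (4.69 to 5.30%, 984 regions). For both of these marks the female KO interval lay below those of both male lines. Such shares also depend on the other autosomes. For H3K27me3 regions, the ratio of the female KO to the male WT share on chromosome 15 ranked 6 from the lowest of 19 autosomes. It ranked 1 for H3K27ac and 2 for H3K4me3. The highest H3K27me3 ratio was that of chromosome 4, at 1.35 on the log2 scale.

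The regions of chromosome 15 held 152574 to 844692 reads per library. Their median width was 6.6 kb in female KO and 4.4 kb in male KO, with 5.2 kb in male WT for H3K4me3. For H3K27me3 it was 10.2 kb in female KO and 6.0 kb in male KO, with 4.2 kb in male WT, and for H3K27ac 8.4, 5.6 and 5.0 kb in the same order of lines. The female KO lists thus had fewer and wider regions on chromosome 15 than either male line, as they had over all autosomes, where the median H3K27me3 width was 9.0 kb in female KO and 5.2 kb in male KO, with 3.8 kb in male WT. H3K27me3 covered 13.6% of the chromosome in female KO and 13.4% in male KO, with 8.25% in male WT.

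Because wider regions and deeper libraries change what is called, density was next read only in 200 bp bins held by all 3 lists of a mark. These shared bins came to 2823 kb of chromosome 15 for H3K4me3, 6606 kb for H3K27me3 and 4512 kb for H3K27ac. For H3K4me3, 4.96% of the reads in shared autosomal bins lay on chromosome 15 in female KO and 5.87% in male KO, with 5.41% in male WT, while the chromosome held 5.06% of the shared length. For H3K27me3 the read shares were 6.79% in female KO and 8.22% in male KO, with 7.04% in male WT, for 6.51% of the length. For H3K27ac they were 6.00% in female KO and 6.82% in male KO, with 6.43% in male WT, for 5.86% of the length. The order was the same for each mark, with female KO lowest, male WT between and male KO highest. Over 9 quantities taken from the whole lists (the share of regions, of covered length and of all reads for each mark), the ratio of the female KO to the male KO share was the lowest of the 19 autosomes in 8.

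**Figure D1:**
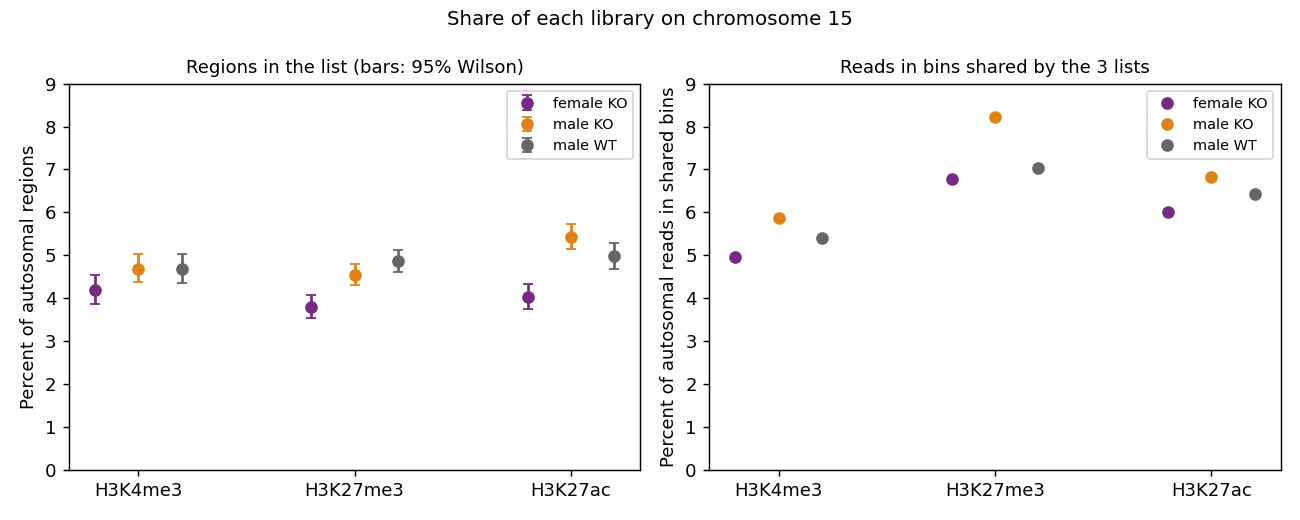
Share of each library on chromosome 15, with marks on the x axis and percent of autosomal regions (left, bars are 95% Wilson intervals) or percent of autosomal reads in shared bins (right) on the y axes. The female KO point is the lowest of the 3 lines for each mark in both panels, for example 6.00% of H3K27ac reads against 6.82% in male KO and 6.43% in male WT.

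Read densities in the shared bins differed with the libraries, and were therefore set beside those of all autosomes. H3K4me3 had 183 reads per kb on chromosome 15 in female KO and 137 in male KO, with 184 in male WT, where all autosomes had 187, 118 and 173 reads per kb in the same order. H3K27me3 had 69.9 reads per kb in female KO and 29.2 in male KO, with 19.02 in male WT, against 67.1, 23.1 and 17.6 over all autosomes. H3K27ac had 72.6 reads per kb in female KO and 103 in male KO, with 43.3 in male WT, against 71.0, 88.2 and 39.5 over all autosomes. Relative to all autosomes, the chromosome was denser in male KO than in the other lines for every mark.

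The chromosome was then cut into 104 windows of 1 Mb, and each window with at least 4 kb of shared bins was given the log2 ratio of its reads between 2 lines, minus the median of that ratio over autosomal windows. This centred log2 ratio is 0 where a window behaves as the typical autosomal window. For H3K4me3, H3K27me3 and H3K27ac, the medians subtracted were 0.10, 1.65 and 0.78 in female KO over male WT. They were -0.56, 0.31 and 1.16 in male KO over male WT, and 0.65, 1.35 and -0.38 in female KO over male KO. A window can therefore have more reads per kb in the first line and still a centred ratio below 0. There were 72 measured windows for H3K4me3, 50 for H3K27me3 and 70 for H3K27ac, and 46 had all 3 marks. The median 95% counting interval of a window was 0.12 to 0.20 wide on the log2 scale, depending on the mark and the lines compared.

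Between the female KO and male KO lines, chromosome 15 had the lowest median of the 19 autosomes for each of the 3 marks. The median log2 ratio, female KO over male KO, was -0.30 for H3K4me3, a ratio of 0.814, and ranged from -1.02 to 0.20 over its windows. It was -0.20 for H3K27me3, a ratio of 0.871, with windows from -1.23 to 0.42. It was -0.18 for H3K27ac, a ratio of 0.882, with windows from -1.19 to 0.44. The next lowest autosome had -0.06 for H3K4me3 (chromosome 13), -0.17 for H3K27me3 (chromosome 14) and -0.07 for H3K27ac (chromosome 13), so chromosome 15 stood apart for H3K4me3 and H3K27ac and was close to its neighbour for H3K27me3. Below 0 were 65 of 72 H3K4me3 windows, 37 of 50 H3K27me3 windows and 59 of 70 H3K27ac windows. With whole merged regions the medians were further from 0, at -0.46 for H3K4me3, -0.48 for H3K27me3 and -0.54 for H3K27ac. The autosome with the highest medians was chromosome 4, which had 0.39 for H3K4me3, 0.44 for H3K27me3 and 0.33 for H3K27ac.

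**Figure D2:**
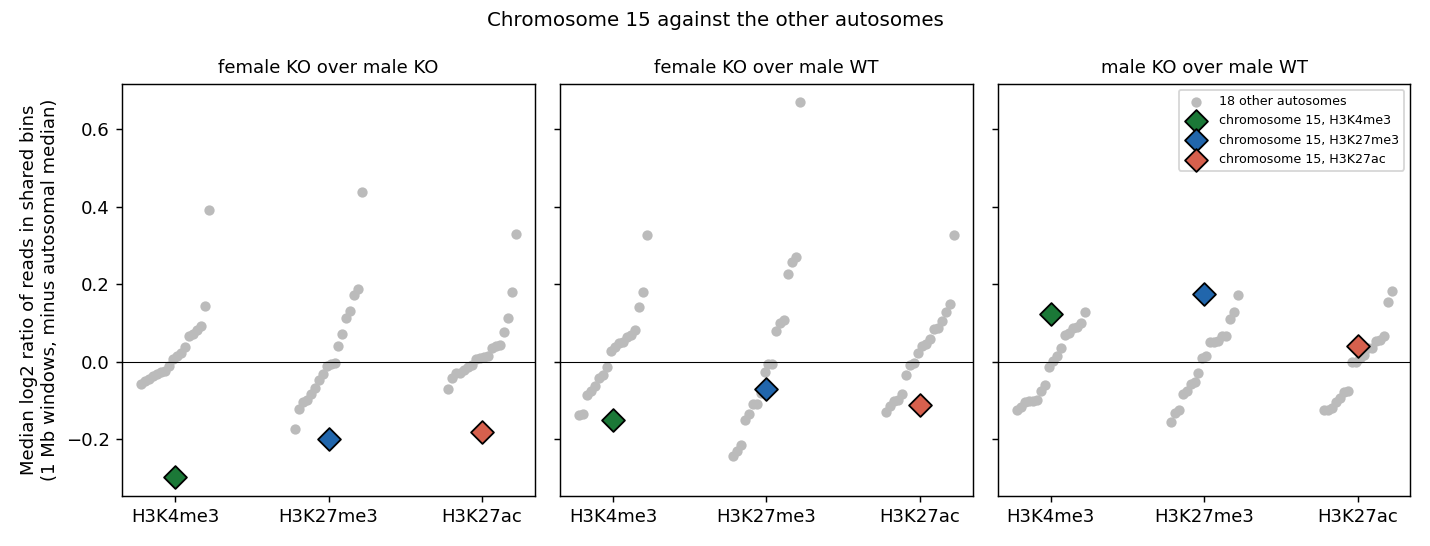
Median centred log2 ratio of reads in shared bins per autosome (y axis), by mark (x axis) and pair of lines (panels), with chromosome 15 as coloured diamonds and the 18 other autosomes as grey points. In the panel of female KO over male KO the diamonds sit at -0.30 for H3K4me3, -0.20 for H3K27me3 and -0.18 for H3K27ac, below all grey points.

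In the comparisons with male WT, the medians of the KO lines lay on opposite sides of 0. These comparisons share the male WT libraries, and each shares a KO library with the comparison above, so they are not independent of it. Female KO over male WT had medians of -0.15 for H3K4me3, -0.07 for H3K27me3 and -0.11 for H3K27ac, at rank 1, 9 and 3 from the lowest of 19 autosomes. Male KO over male WT had 0.12 for H3K4me3, 0.17 for H3K27me3 and 0.04 for H3K27ac, at rank 18, 19 and 14 from the lowest. The H3K27me3 ranks depended on the processing. For male KO over male WT the rank was 8 in windows of 5 Mb, with a median of 0.01, and 12 with whole merged regions. For female KO over male WT it was 1 in windows of 5 Mb and 3 with whole merged regions. The H3K27me3 median of female KO over male WT had 27 of 50 windows below 0 and an interval over windows of -0.26 to 0.16, so its side of 0 is not settled. The H3K27ac median of male KO over male WT had an interval over windows of 0.0020 to 0.14, which included 0 at some other settings. In the share of listed regions, H3K27me3 was lower than male WT in both KO lines, with log2 ratios of shares of -0.36 in female KO and -0.10 in male KO. These were at rank 6 and 8 from the lowest of 19 autosomes, where chromosome 4 was highest, at 1.35 and 1.18.

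The shift between the KO lines ran along the whole chromosome for H3K4me3, and along most of it for H3K27me3 and H3K27ac. In stretches of 10 Mb, a length chosen after seeing the windows, the H3K4me3 median of female KO over male KO was below 0 in 11 of 11 stretches and lay between -0.39 and -0.15. The H3K27me3 median was below 0 in 10 of 11 stretches, with 0.07 in the last, and the H3K27ac median in 10 of 11, with 0.01 in the last. In the stretch from 80000001 to 90000000 both were near 0. H3K27me3 was at -0.007 there, with 5 of 10 windows above 0, and H3K27ac at -0.03, with 4 of 9 above 0. In the stretch after it H3K27me3 was at -0.32 and H3K27ac at -0.09. In male KO over male WT, the H3K4me3 median was above 0 in 11 of 11 stretches, between 0.09 and 0.30, while H3K27me3 was above 0 in 7 and H3K27ac in 8. The H3K4me3 shift was the most even of the 3 marks in this sense.

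Window by window, all 3 marks lay below 0 more often on chromosome 15 than on autosomes at large in female KO over male KO, and less clearly so in female KO over male WT. All 3 marks were below 0 for female KO over male KO in 26 of 46 windows, 56.5% (42.2 to 69.8%), against 19.1% of the 1034 autosomal windows measured for all 3 marks, and chromosome 15 had the highest such share of the 19 autosomes. All 3 were above 0 in 1 of 46 windows, against 20.4% of autosomal windows. For female KO over male WT all 3 were below 0 in 17 of 46 windows, 37.0% (24.5 to 51.4%), against 19.1%, and above 0 in 3, against 20.8%. For male KO over male WT all 3 were above 0 in 17 of 46 windows, 37.0% (24.5 to 51.4%), against 21.4%, and below 0 in 0, against 20.1%. These intervals treat the windows as independent, but neighbouring windows can share a shift, so the intervals may be too narrow.

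Runs of neighbouring windows with all 3 marks below 0 in female KO over male KO numbered 7. No count of runs was made on the other autosomes. With all 3 marks below 0 in 26 of 46 windows, some neighbouring windows would form runs without a shared segment. Runs are counted over windows measured for all 3 marks, and other windows in between are passed over. Only windows with all 3 marks already on that side of 0 enter a run. The side of 0 of the summed values of a run, here and below, was therefore fixed by the choice, and only their sizes are described. The longest held 8 such windows from 57000001 to 76000000, where H3K4me3 was at -0.30 (counting interval -0.32 to -0.28), H3K27me3 at -0.36 (-0.38 to -0.34) and H3K27ac at -0.27 (-0.28 to -0.25) by summed reads. These summed values were close, although the H3K27me3 interval lay below those of the other marks. Window by window H3K27me3 differed more, from -0.55 in the window from 73000001 to -0.02 in that from 58000001. The windows from 73000001 and 74000001, with 375.8 and 340.2 kb of shared H3K27me3 bins, weighed most in its sum. Windows in that span that were not measured for all marks included 2 with H3K4me3 above 0, at 0.07 from 61000001 and 0.20 from 65000001. A run of 4 windows from 28000001 to 36000000 had -0.36 for H3K4me3, -0.32 for H3K27me3 and -0.39 for H3K27ac. In male KO over male WT the longest run above 0 held 5 windows from 73000001 to 78000000, with 0.10 for H3K4me3, 0.42 for H3K27me3 and 0.20 for H3K27ac, so the marks differed in size there. In female KO over male WT the longest run below 0 held 4 windows from 59000001 to 74000000, at -0.13 for H3K4me3, -0.09 for H3K27me3 and -0.23 for H3K27ac. Between these 4 windows H3K4me3 was above 0 in the windows from 61000001 (0.10), 65000001 (0.19) and 67000001 (0.17), and H3K27ac in that from 62000001 (0.15), so the span was not below 0 throughout.

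No window passed a log2 ratio of 0.5, which is 1.41-fold, in all 3 marks in 1 direction. The count was 0 of 46 in each comparison (Wilson upper bound 7.71%), where autosomal windows passed in 0.387% of cases for female KO over male WT, 0.484% for male KO over male WT and 0.58% for female KO over male KO. Such windows were rare everywhere. The count of 0 depended on the processing and on the threshold. With centring on summed reads, 3 of 46 windows passed in all 3 marks for female KO over male WT, 6.52%, and 1 of 46 for female KO over male KO, 2.17%. With whole merged regions in place of shared bins, 3 of 49 passed for female KO over male WT, 6.12%, and 4 of 49 for female KO over male KO, 8.16%. With shared bins and a threshold of 0.3, 3 of 46 passed for female KO over male WT, 6.52%, and 3 of 46 for female KO over male KO. For male KO over male WT it was 0 of 46. The autosomal shares were not computed with centring on summed reads, with whole merged regions or at 0.3. The counts at these settings therefore cannot be set against the autosomal shares given above. Windows with under 4 kb of shared bins of any mark were not measured in this way.

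**Figure D3:**
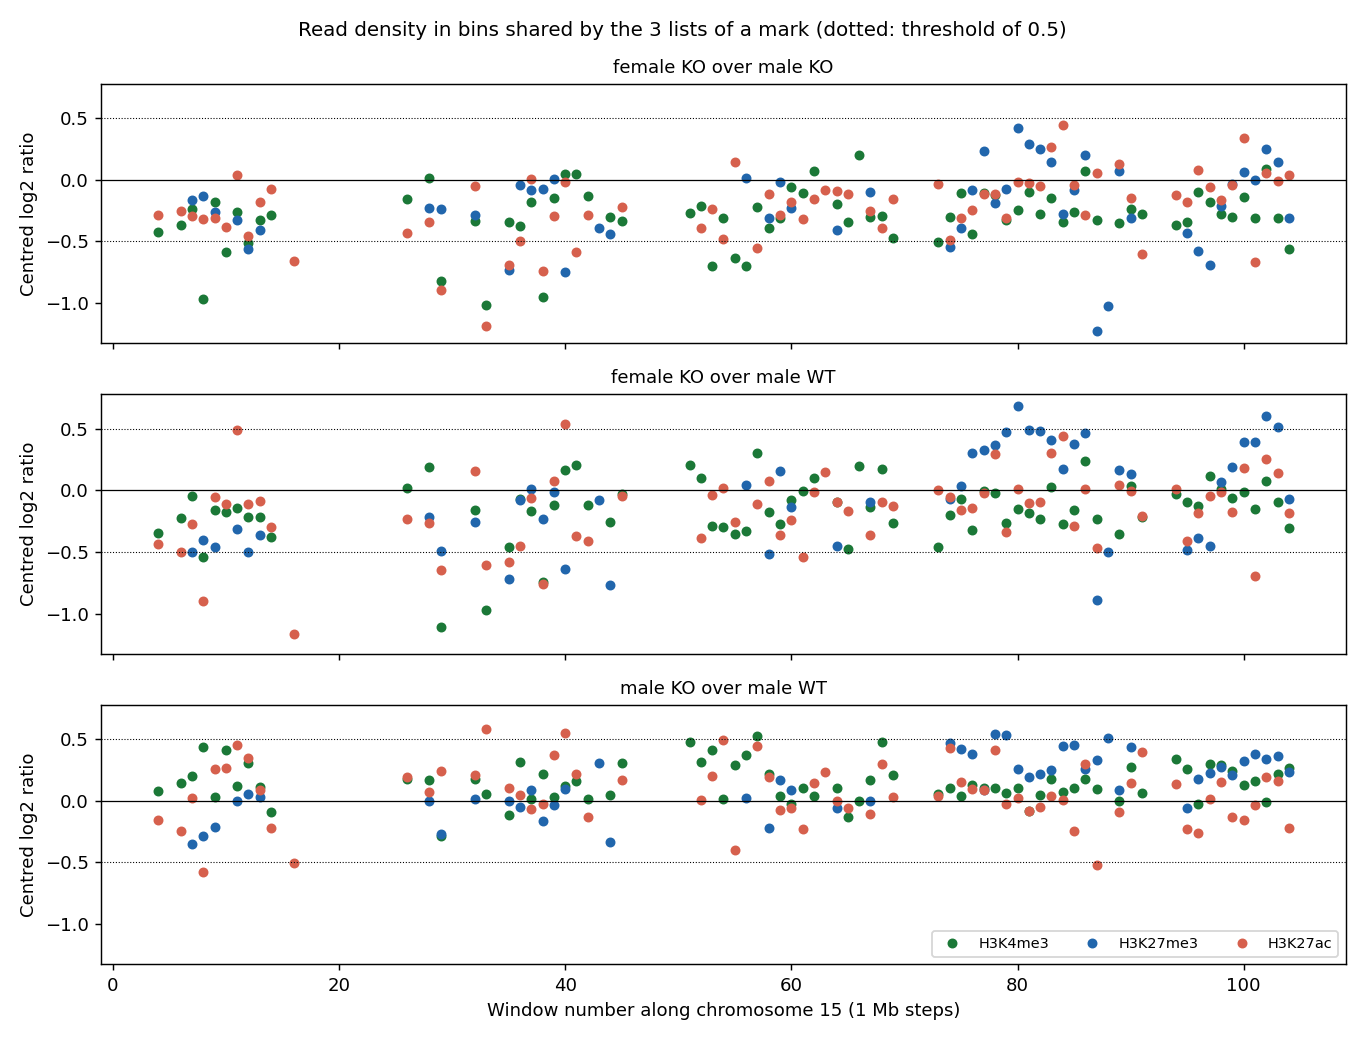
Centred log2 ratio (y axis) of each measured 1 Mb window along chromosome 15 (x axis, window number) for the 3 marks, in a panel per pair of lines; dotted lines mark 0.5 and -0.5. In female KO over male KO most points of all marks lie between -0.50 and 0. In female KO over male WT the H3K27me3 points of windows from 70000001 on lie between -0.89 and 0.68, most of them above 0. H3K4me3 points there lie between -0.46 and 0.24.

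The windows with the lowest median of the 3 marks for female KO over male KO lay in the first part of the chromosome, although the lowest H3K27me3 window alone began at 86000001. In the window from 28000001 to 29000000, female KO over male KO was at -0.82 for H3K4me3, -0.23 for H3K27me3 and -0.89 for H3K27ac, on 4.0, 18.2 and 4.8 kb of shared bins. From 37000001 to 38000000 the ratios were -0.95, -0.08 and -0.74 in the same order of marks, and from 34000001 to 35000000 they were -0.34, -0.73 and -0.69. In the first and second of these windows the marks of active promoters moved and H3K27me3 moved little. The same 3 windows were the lowest in female KO over male WT, at -1.11, -0.49 and -0.65 in the window from 28000001, -0.74, -0.23 and -0.76 in that from 37000001, and -0.46, -0.72 and -0.58 in that from 34000001; the female KO libraries are common to both comparisons. H3K27ac in the window from 37000001 had 43.3 reads per kb in female KO and 93.7 in male KO, with 42.6 in male WT.

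The windows with the highest median of the 3 marks lay mostly in the last part, with an exception at 11000001. For female KO over male KO they began at 82000001 (median of marks 0.15), 101000001 (0.09) and 85000001 (0.07), all under the threshold. For female KO over male WT they began at 82000001 (0.31), 77000001 (0.30) and 101000001 (0.25). For male KO over male WT they began at 73000001 (0.43), 77000001 (0.42) and 11000001 (0.30), and the lowest began at 7000001 (-0.28), 28000001 (-0.27) and 80000001 (-0.08).

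Windows where exactly 1 mark passed 0.5 were more frequent than windows where the marks passed together. They numbered 8 of 46 for female KO over male WT, 17.4% (9.09 to 30.7%), against 26.5% of autosomal windows. They numbered 5 for male KO over male WT, 10.9% (4.73 to 23.0%), against 5.51%, and 8 for female KO over male KO, 17.4%, against 18.6%. Each of these shares has the autosomal value within its interval. The intervals over 46 windows are wide, so a difference from the autosomes is neither shown nor excluded. A pair of marks passed in 5 windows for female KO over male WT, 10.9% (4.73 to 23.0%), against 4.06% of autosomal windows, a value just below the interval. For female KO over male KO a pair passed in 4 windows, 8.70% (3.43 to 20.3%), against 4.06%, and for male KO over male WT in 0, against 0.87%.

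H3K27me3 was the mark that most often passed alone in both comparisons with female KO, and H3K27ac in male KO over male WT. H3K27me3 did so in 7 of the 8 windows for female KO over male WT, higher in 3 (6.52%, against 14.3% of autosomal windows) and lower in 4 (8.70%, against 6.96%). The highest was the window from 79000001 to 80000000, where H3K27me3 was at 0.68 (0.63 to 0.74), H3K4me3 at -0.15 and H3K27ac at 0.01. The lowest was the window from 86000001 to 87000000, with H3K27me3 at -0.89 (-1.19 to -0.58) on 10.2 kb of shared bins, where it had 23.8 reads per kb in female KO and 21.96 in male KO, with 14.1 in male WT. H3K27ac passed alone in 1 window (against 2.8% of autosomal windows lower), from 100000001 to 101000000, at -0.70 (-0.76 to -0.63).

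In male KO over male WT, H3K27me3 passed alone higher in 2 windows (4.35%, against 0.87% of autosomal windows) and lower in 0 (against 0.87%). Both were neighbours, from 77000001 to 79000000, with H3K27me3 at 0.54 over both (0.51 to 0.57), where H3K4me3 was at 0.08. H3K27ac was at 0.42 in the first of them, near the H3K27me3 value though under the threshold, and at -0.02 in the second. The larger of both ratios was 0.55, from 77000001 to 78000000, with H3K27me3 at 67.7 reads per kb in female KO and 30.3 in male KO, with 16.7 in male WT. H3K27ac passed alone in 3 windows, higher in 1 (against 1.74%) and lower in 2 (against 1.93%), highest from 39000001 to 40000000 at 0.55 (0.38 to 0.73) and lowest from 7000001 to 8000000 at -0.58 (-0.76 to -0.38). In female KO over male KO, H3K27me3 passed alone in 5 windows, all lower (10.9%, interval 4.73 to 23.0%, against 4.64%) and none higher (upper bound 7.71%, against 8.8%). Both autosomal shares lay just outside these intervals. The lowest was again from 86000001 to 87000000 at -1.23 (-1.50 to -0.96). H3K4me3 passed alone in 2 windows, both lower (4.35%, against 1.16%), and the lower one, from 7000001 to 8000000 at -0.97 (-1.12 to -0.82), rests on 4 kb of shared bins. H3K27ac passed alone in 1, lower (against 1.93%, and 1.35% higher), from 100000001 to 101000000, at -0.66 (-0.72 to -0.61).

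H3K27me3 also differed along the chromosome on a wider scale, in a way that H3K4me3 did not. In female KO over male WT, the H3K27me3 medians of the first 7 stretches of 10 Mb lay between -0.46 and -0.04, whereas those of the eighth, ninth and last stretch were 0.33, 0.28 and 0.45, with -0.16 in the stretch from 90000001 to 100000000. In male KO over male WT the last 4 stretches had 0.42, 0.29, 0.22 and 0.35, with 7 of 7, 10 of 10, 5 of 6 and 4 of 4 windows above 0. H3K4me3 of female KO over male WT stayed between -0.22 and 0.02 in all 11 stretches. Relative to the typical autosomal window, the H3K27me3 ratio to male WT was thus raised in both KO lines in 3 of the 4 stretches from 70000001 on. In the stretch from 90000001 the 6 windows of female KO over male WT were split, with 3 above 0.

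This profile went with the amount of H3K4me3 in the window. Over the 50 windows measured for H3K27me3, the Spearman correlation of its ratio with the length of shared H3K4me3 bins was 0.82 for female KO over male WT and 0.67 for female KO over male KO, and 0.50 for male KO over male WT. Over the 1153 autosomal windows it was 0.58, 0.55 and 0.19 for the same comparisons. These are descriptions across windows of the same libraries. Windows with under 20 kb of shared H3K4me3, a split chosen after seeing the plot, had a median H3K27me3 ratio of -0.45 in female KO over male WT (17 windows, 1 above 0), and those with 20 kb or more had 0.17 (33 windows, 22 above 0). The base composition of the windows was not examined here, and its part in this relation was not tested.

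**Figure D4:**
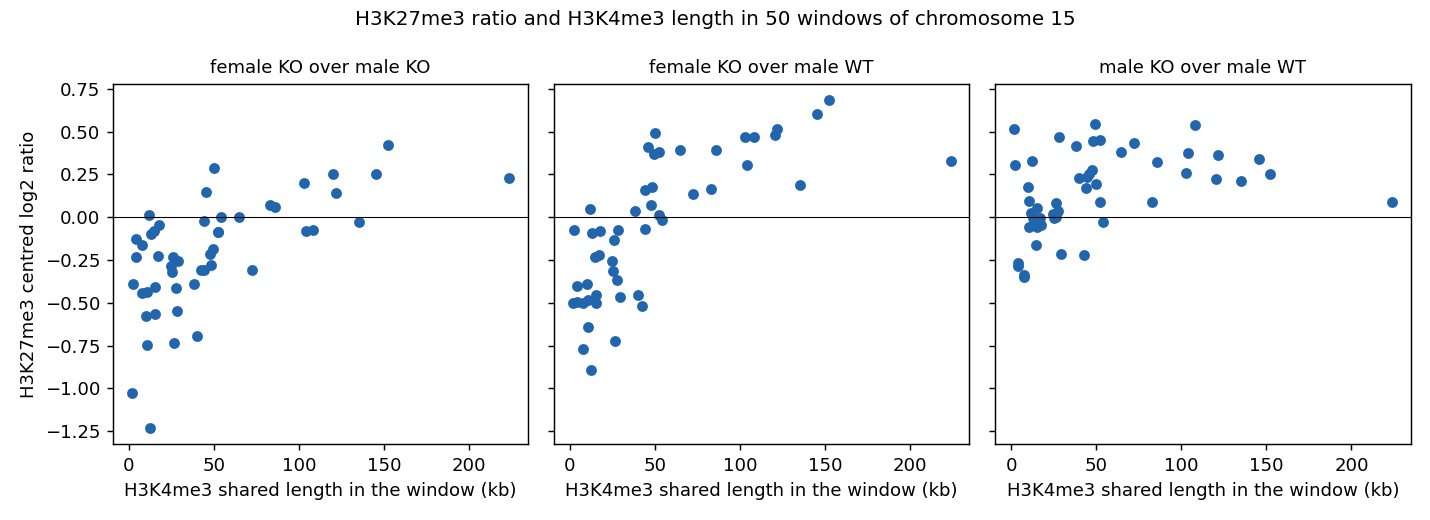
H3K27me3 centred log2 ratio (y axis) against the length of shared H3K4me3 bins in kb (x axis) for 50 windows of chromosome 15, in a panel per pair of lines. In female KO over male WT the ratio is mostly below 0 at short lengths (median -0.45 under 20 kb) and mostly above 0 at longer ones (median 0.17).

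Across the 46 windows with all marks, H3K4me3 and H3K27ac varied together in female KO over male WT (Pearson r 0.55, Spearman rho 0.43) and in female KO over male KO (r 0.44, rho 0.29), but not in male KO over male WT (r -0.15, rho -0.00). Both marks sit largely at the same places: 81.9% of the H3K4me3 regions of chromosome 15 overlapped H3K27ac in female KO, against 83% over all autosomes, 83.3% in male KO, against 77.8%, and 77.9% in male WT, against 75.1%. H3K27me3 followed H3K4me3 with r of 0.23 in female KO over male WT, 0.09 in female KO over male KO and -0.04 in male KO over male WT. Over the 1034 autosomal windows, r of H3K4me3 with H3K27ac was 0.52 in female KO over male WT, 0.47 in female KO over male KO and 0.39 in male KO over male WT, and r of H3K4me3 with H3K27me3 was 0.26, 0.25 and 0.44. The chromosome 15 values were near these for H3K4me3 with H3K27ac in both comparisons with female KO, and lower in male KO over male WT. The pooled r also holds shifts between chromosomes. Within single other autosomes, r of H3K4me3 with H3K27ac ran from 0.07 to 0.61, -0.02 to 0.91 and -0.10 to 0.85 in the same order. Chromosome 15 lay outside only in male KO over male WT, below the range. For H3K4me3 with H3K27me3 in that comparison the range was -0.18 to 0.90, with chromosome 15 inside.

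Overlapping or touching regions from the 3 lists were merged mark by mark, which gave 837 H3K4me3, 1324 H3K27me3 and 1319 H3K27ac merged regions on chromosome 15. Regions held by the female KO list alone were scarce there, 8.23% of H3K27me3 regions (6.87 to 9.84%, 109 regions) against 21.2% over all autosomes, and 4.02% of H3K27ac regions (3.09 to 5.22%, 53 regions) against 10.4%. For H3K4me3 they were 3.11% (2.13 to 4.51%, 26 regions) against 4.56%. Regions held by the male KO list alone were frequent for H3K27ac, 28.4% (26.1 to 30.9%, 375 regions) against 16.5%, and made up 25.9% of H3K27me3 regions (23.6 to 28.3%) against 22.2% and 12.4% of H3K4me3 regions (10.4 to 14.8%) against 10.4%. Regions of both male lists without female KO were also above the autosomal share for each mark, at 10.6% for H3K4me3 (8.72 to 12.9%) against 6.72%, 9.29% for H3K27me3 (7.84 to 10.97%) against 6.65% and 12.1% for H3K27ac (10.48 to 14.0%) against 8.25%.

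**Figure D5:**
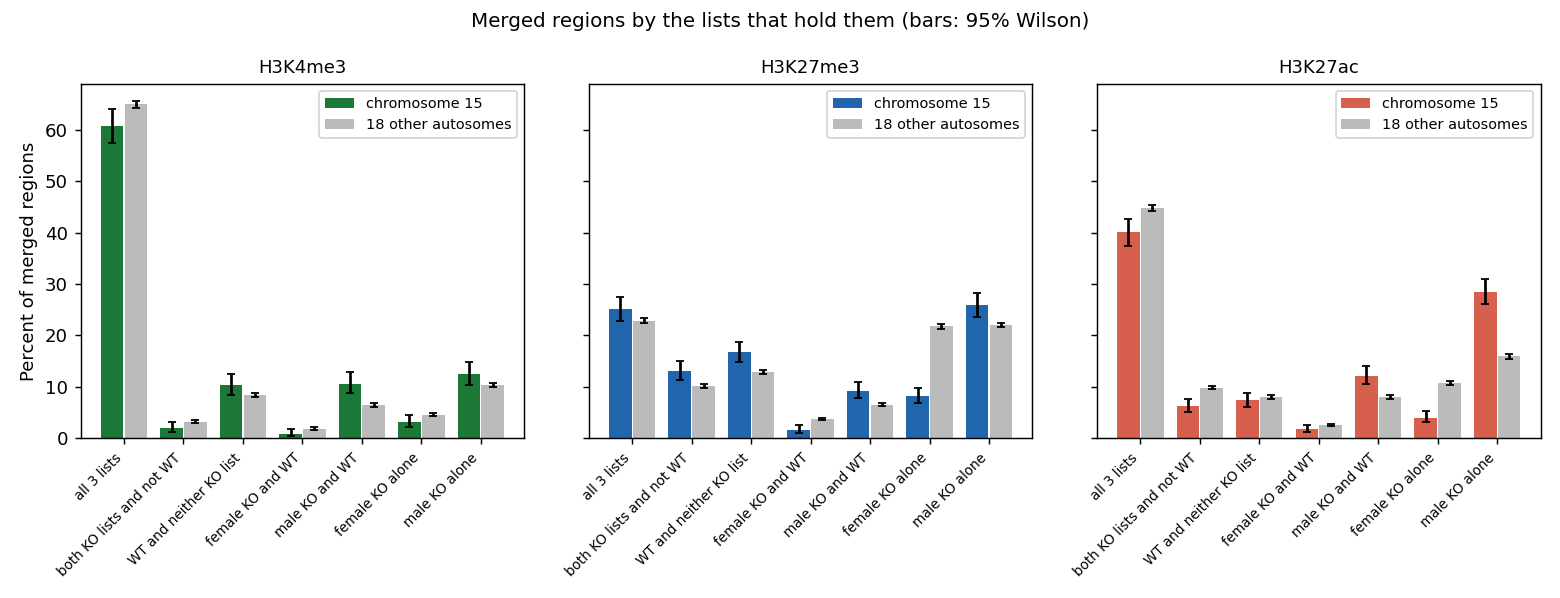
Percent of merged regions (y axis) by the lists that hold them (x axis), for chromosome 15 (coloured bars) and the 18 other autosomes (grey bars), with 95% Wilson intervals. Regions of the female KO list alone are lower on chromosome 15, at 8.23% for H3K27me3 and 4.02% for H3K27ac, and H3K27ac regions of the male KO list alone are higher, at 28.4%.

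Regions in all 3 lists made up 60.7% of H3K4me3 regions (57.3 to 63.9%) against 64.8% over all autosomes, 25.1% of H3K27me3 regions (22.8 to 27.5%) against 22.9% and 40.0% of H3K27ac regions (37.4 to 42.7%) against 44.6%. Regions of the female KO and WT lists without male KO were few, at 0.836% of H3K4me3 against 1.85%, 1.66% of H3K27me3 against 3.68% and 1.74% of H3K27ac against 2.56%. Patterns that would separate both KO lines from WT did not all lean the same way. Regions in both KO lists but not WT made up 13.1% of H3K27me3 regions (11.4 to 15.1%, 174 regions) against 10.3% over all autosomes, but 6.29% of H3K27ac regions (5.10 to 7.73%, 83 regions) against 9.69%, and 2.03% of H3K4me3 regions (1.27 to 3.23%, 17 regions) against 3.17%. Regions in WT and neither KO list made up 16.7% of H3K27me3 regions (14.8 to 18.8%, 221 regions) against 13.1%, 7.35% of H3K27ac regions (6.07 to 8.89%, 97 regions) against 8.02% and 10.3% of H3K4me3 regions (8.40 to 12.5%, 86 regions) against 8.50%. The H3K27me3 excess thus stood on both sides. The H3K27ac share in both KO lists but not WT was 15.6% where a list had to cover 50% of the merged region, and the autosomal share at that setting was not computed.

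H3K27me3 held the longest regions of the chromosome. The merged region with the most H3K27me3 reads ran from 102557001 to 102983800, 426.8 kb near the chromosome's end, with 47084 reads in female KO and 16855 in male KO, with 9842 in male WT. All 3 lines covered most of it, 426.8, 422.2 and 400.0 kb in that order, and H3K27ac covered none of it in female KO and male WT and 1.8 kb in male KO. The next were from 80095401 to 80350800 with 24313, 7151 and 4835 reads, and from 74198201 to 74451600 with 18508, 9921 and 5016 reads, in female KO, male KO and male WT. In each of these domains the order of the lines by reads was that of their H3K27me3 totals on the chromosome, 844692 in female KO and 335756 in male KO, with 152574 in male WT.

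The widest H3K27me3 domain shared by the KO lists and missing from WT measured 122 kb from 85027001 to 85149200, with 8881 reads over 122 kb in female KO and 1491 reads over 79.2 kb in male KO. This span carried neither H3K27ac nor H3K4me3 in female KO, 16.0 kb of H3K27ac and 2.0 kb of H3K4me3 in male KO, and 19.4 kb of H3K27ac and 3.6 kb of H3K4me3 in male WT. Of the 3 lines, the one with H3K27me3 over the whole span thus had no active mark listed there. The next were from 79990601 to 80048400, with 3953 reads in female KO and 1570 in male KO, and from 101439001 to 101480800, with 1757 and 43 reads. The region from 101439001 was 41.8 kb wide, and male KO covered only 3.2 kb of it. Over the region from 79990601, H3K27ac covered 17.6 kb in female KO and 18 kb in male KO, with 19.8 kb in male WT. The 3 longest H3K27me3 regions in WT and neither KO list were short, from 57406801 to 57415000, 94538601 to 94546600 and 6808201 to 6816000, with 96, 121 and 136 reads, and carried neither other mark in any line.

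H3K27ac was richest from 77587401 to 77697600, with 11754 reads in female KO and 16781 in male KO, with 3977 in male WT, then from 101795801 to 101888000 (11818, 13297 and 4726 reads) and from 101190001 to 101261800 (10346, 13786 and 3932 reads). Each of these also held H3K4me3 in all 3 lines, 28.6 to 45.8 kb of it. The longest H3K27ac region of the female KO list, from 61894601 to 62023400, was 128.8 kb wide; male KO covered 117.2 kb of that span and male WT 54.6 kb, H3K4me3 covered 5.6, 5.0 and 5.8 kb in female KO, male KO and male WT, and H3K27me3 was listed in none.

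Among H3K27ac regions in both KO lists but not WT, the longest ran from 79877201 to 79897200 with 800 reads in female KO and 958 in male KO, and H3K27me3 covered 12.2 kb of it in female KO. The other two ran from 31160801 to 31179200, with 315 and 578 reads, and from 54941601 to 54957600, with 630 and 163 reads, in female KO and male KO. The last carried H3K4me3 in all 3 lines, 5.8, 3.6 and 4.4 kb. H3K27ac regions of WT and neither KO list ran from 41481001 to 41491200, 75226601 to 75236400 and 58873201 to 58881000, with 236, 370 and 184 reads, and none overlapped H3K4me3 or H3K27me3 of any line.

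The H3K4me3 regions with the most reads were held by all 3 lines. The first, from 85474401 to 85520000, had 12595 reads in female KO and 5570 in male KO, with 8118 in male WT, and H3K27me3 covered 9.6 kb of it in female KO and none in the male lines. The next, from 76016201 to 76043600, had 8506, 4126 and 5648 reads, and that from 101050001 to 101104800 had 7303, 2964 and 6253. In both KO lists but not WT the longest was 4.6 kb, from 91501601 to 91506200, with 632 reads in female KO and 354 in male KO; H3K27ac covered 4.6 kb of it in female KO, 4.0 kb in male KO and none in male WT. At this place the mark of promoters and the mark of activity were both present in the KO lines only, of the 3 lines. The other two were 4.0 kb wide and differed from it: from 6335001 to 6339000 no line had H3K27ac, and from 94845801 to 94849800 H3K27ac covered 4.0 kb in both KO lines and 3.6 kb in male WT. The 3 longest H3K4me3 regions of WT and neither KO list, from 100993601 to 100999000, 66974801 to 66980000 and 80816801 to 80822000, had 289, 261 and 242 reads. H3K27ac covered 5.0 to 5.4 kb of each in all 3 lines, so the places that lacked H3K4me3 in the KO lists kept a listed H3K27ac region.

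H3K27me3 met H3K4me3 more often on chromosome 15 than on autosomes at large, in each line. Of the H3K4me3 regions, 34.4% overlapped H3K27me3 in female KO (30.7 to 38.4%) against 29.1% over all autosomes, 28.2% in male KO (25.1 to 31.5%) against 19.6%, and 13.6% in male WT (11.3 to 16.2%) against 9.16%. Both H3K27me3 and H3K27ac were at 22.8% of them in female KO (19.6 to 26.5%) against 19.1%, 16.1% in male KO (13.6 to 18.8%) against 7.37%, and 3.73% in male WT (2.58 to 5.38%) against 2.24%. Neither mark was at 6.50% of them in female KO (4.75 to 8.83%) against 6.99%, 4.57% in male KO (3.30 to 6.29%) against 9.9%, and 12.3% in male WT (10.1 to 14.9%) against 18%. The excess of H3K27me3 and of both marks over autosomes was largest in male KO, as a difference in percentage points. The H3K27me3 cover on the chromosome was 14.0 Mb in female KO and 13.8 Mb in male KO, against 8.54 Mb in male WT, and the part of cover in these overlaps was not tested.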

How the data were processed

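ChIP-seq for H3K4me3, H3K27me3 and H3K27ac was deposited as 9 lists of enriched regions, 1 library per mark and line. Per the submitters' processing notes, the tools were Bowtie 1.1.2 and SICER 1 and the genome build was mm9. Each list gives a position and, judged from the values, a read count per region as the authors deposited it. For the control library, the false discovery threshold and the total depth nothing is given in the sources used.

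All rows on chromosome 15 were taken. Reads were spread evenly over each region, and 200 bp bins held by all 3 lists of a mark were summed in 1 Mb windows with at least 4 kb of them. The log2 ratio between lines was centred on its median over autosomal windows, and 0.5 was the threshold. A segment needed at least 2 neighbouring measured windows. Regions of the 3 lists were merged where they shared at least 1 bp or touched. Spreading reads evenly hides peaks within a wide region, and the shared bins leave out places called in fewer lists.

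Regions and windows were named by rule. For each mark these were the 3 longest merged regions in both KO lists but not WT, the 3 longest in WT alone, and the 3 in all lists with the most reads. For each comparison they were the 3 windows highest and the 3 lowest by the median of the marks, and the largest window with 1 mark alone. The longest region of a list, the runs and the stretches were added after seeing the data. The members, lists and thresholds were chosen with earlier results of these data known. With 1 library per group no test was possible. Intervals are 95% counting intervals, except the interval over windows of a median. That one is a 95% interval from the ordered window values, with windows taken as independent, and does not measure variation between libraries. The scripts were tested on simulated data. Chromosome lengths came from GenomeInfoDb 1.38.1, and the computation used scipy 1.17.1, pandas 2.3.3, numpy 2.4.6 and, for plots, matplotlib 3.10.9 under Python 3.11.15.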

Additional observations from a re-analysis of the deposited data

Results flagged for a closer look

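For each mark the chromosome 15 median lay on opposite sides of 0 in the 2 KO lines relative to male WT. H3K4me3 was at -0.15 in female KO over male WT and at 0.12 in male KO over male WT. H3K27me3 was at -0.070 in female KO over male WT, with an interval over windows of -0.26 to 0.16 that includes 0, and at 0.17 in male KO over male WT. H3K27ac was at -0.11 and 0.042 in the same order. The interval of the latter was 0.0020 to 0.14. It included 0 in windows of 2 and 5 Mb, with a 10 kb minimum and in windows measured for all marks. With the other centrings, whole merged regions and regions of at most 20 kb it lay above 0. The side of 0 of this median is therefore not settled either. These differences were not tested, since each line gave 1 library per mark and both ratios share the male WT library. DNA content was not measured in these files, and its part in the values was not tested.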

How the results depend on the processing

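No paired analysis was possible because each group has 1 library per mark and no replicate numbers. The median of female KO over male KO stayed the lowest of 19 autosomes for each mark in windows of 2 and 5 Mb, with a 10 kb minimum, with whole merged regions, in regions of at most 20 kb and in windows measured for all marks. Another centring moves all autosomes alike and cannot change a rank. No median changed sign in these settings. Other values moved as follows. Centring on summed reads gave H3K27me3 -0.39 in female KO over male KO and -0.35 in female KO over male WT, with 32.6% of windows with 1 mark alone in female KO over male WT and 71.7% with all 3 below 0 in female KO over male KO. Whole merged regions gave, for female KO over male KO, H3K4me3 -0.46, H3K27me3 -0.48 and H3K27ac -0.54, with 38.8% of windows with 1 mark alone, 81.6% with all below 0 and 8.16% together. For female KO over male WT they gave -0.23, -0.42 and -0.35, with 49.0% alone and 53.1% below 0, and for male KO over male WT H3K4me3 0.19, H3K27ac 0.24 and 32.7% alone. For female KO over male WT, male KO over male WT and female KO over male KO, windows with 1 mark alone were 52.2, 34.8 and 34.8% at a threshold of 0.3, and 8.70, 0 and 8.70% at 0.7. For male KO over male WT they were 3.45% in windows of 2 Mb and 0% in windows of 5 Mb. Windows of 5 Mb also gave 0.0073 for H3K27me3 in male KO over male WT and 78.6% with all below 0 in female KO over male KO. Keeping regions at or above the median count gave shares on chromosome 15 of 4.31, 5.41 and 5.54% for H3K27me3 and 4.44, 6.02 and 5.96% for H3K27ac in female KO, male KO and male WT. It also gave 4.57% for H3K27ac and 0.735% for H3K4me3 in both KO lists but not WT, and 13.8% for H3K27me3 and 2.21% for H3K4me3 in WT alone. Asking a list to cover 50% of a merged region gave 16.5% for H3K27me3 and 15.6% for H3K27ac in both KO lists but not WT. Autosomal shares of windows and of merged region patterns were not computed at these settings, and the cause of these moves was not tested. Centring on the other autosomes, and using only windows measured for all marks, were chosen after seeing the data. Total depth is unknown; the median counting interval of a window was widest, at 0.20, for H3K27ac in female KO over male WT and for H3K27me3 in male KO over male WT.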
